A study of Saccharomyces cerevisiae with 8 samples.

Results

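The 137 cytosolic ribosomal protein genes of *S. cerevisiae* were followed in 8 RNA sequencing libraries. They were chosen by name from the 7126 genes of the count tables, as every gene called RPL or RPS with a number, with or without A or B, together with RPP0, RPP1A, RPP1B, RPP2A and RPP2B. 56 encode proteins of the small (40S) subunit and 81 proteins of the large (60S) subunit, the RPP genes of the stalk included. 118 of them form 59 pairs of A and B paralogs, 24 pairs in the 40S subunit and 35 in the 60S subunit, and 19 are single genes. Mitochondrial ribosomal proteins were left out. The study asked how a strain that overproduces the polyphosphatase Ppn1 withstands excess manganese. CRN is a MATa haploid in which PPN1 is deleted, although its genotype label reads wild type, and CRN/PPN1 is CRN transformed with a vector carrying PPN1. The groups were CRN/PPN1 in YPD with 5 mM MnSO4, harvested after 16 h, CRN/PPN1 in control YPD, harvested after 12 h, CRN in YPD with 5 mM MnSO4, harvested after 40 h, and CRN in control YPD, harvested after 12 h. All media held 14 mM KH2PO4, and each group had 2 libraries, from 2 cultivations run at the same time. P-values therefore measure the spread between such cultures. CRN is listed without a vector, so the vector and PPN1 itself cannot be told apart, and neither can manganese and the time of growth.

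Ribosomal protein genes are among the most heavily transcribed genes of a growing yeast cell, and their transcription follows the supply of nutrients and the rate of growth. Rap1 binds their promoters and recruits Fhl1 with its coactivator Ifh1, while the TOR kinase pathway and Sfp1 tie the set to nutrients and stress. A ribosome needs each core protein in equal amounts. Many of these proteins come from a pair of genes left by the ancient duplication of the yeast genome, and such paralogs often encode the same or nearly the same protein from promoters that differ.

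The coding sequences of RPS28B and RPS28A are shown because this pair had the largest change of the ratio between paralogs, and those of RPL41B and RPL41A because they show how little sequence can separate a pair. Both are read 5' to 3' on the coding strand of the R64 (sacCer3) reference, and capitals mark the bases that differ between the paralogs. RPS28B lies at chrXII:673131-673334 on the plus strand and RPS28A at chrXV:648804-649007 on the minus strand. RPL41B lies at chrIV:221724-221801 and RPL41A at chrIV:130407-130484, both on the minus strand. None of these genes has an intron in its coding sequence.
RPS28B: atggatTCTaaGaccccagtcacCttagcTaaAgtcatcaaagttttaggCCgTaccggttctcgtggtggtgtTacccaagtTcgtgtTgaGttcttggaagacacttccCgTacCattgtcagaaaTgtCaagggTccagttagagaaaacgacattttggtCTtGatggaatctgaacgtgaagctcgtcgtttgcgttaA
RPS28A: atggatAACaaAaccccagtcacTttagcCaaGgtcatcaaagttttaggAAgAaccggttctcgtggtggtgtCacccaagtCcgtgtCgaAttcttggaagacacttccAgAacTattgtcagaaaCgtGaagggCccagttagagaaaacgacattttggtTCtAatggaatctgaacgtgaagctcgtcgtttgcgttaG
RPL41B: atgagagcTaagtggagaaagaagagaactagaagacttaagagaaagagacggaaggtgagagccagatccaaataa
RPL41A: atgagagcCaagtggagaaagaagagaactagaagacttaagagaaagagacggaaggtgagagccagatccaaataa

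RPS28B and RPS28A differed at 24 of 204 bases, and the longest run they shared was 35 bases, shorter than the 36 bases of the shortest read kept. RPL41B and RPL41A differed at 1 of 78 bases and shared a run of 69 bases. Reads that map to several places were not counted, so genes with a near copy lose reads. Of the 50-base windows of the coding sequence, under 50% occurred once in the genome for 16 members, and their levels and ratios are uncertain. Among them were the A and B genes of RPL4, RPL35, RPL41 and RPS6. Over all members the median share of such unique windows was 96.5%. The paralogs of 54 of the 59 pairs had coding sequences of the same length and 21 pairs encoded identical proteins. The median protein identity was 99.1% and the lowest, over all 59 pairs, was 61.3%.

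The binding motif of Rap1, ACCCNNACA with AC before it, was searched on both strands in the 500 bases before each start codon. It was found for 19 of the 137 members (13.9%) and for 57 of all 6013 protein-coding genes (0.948%). ACCCNNACA alone, a shorter form that was chosen after the data were seen and that the longer one contains, was found for 54 members (39.4%) and 329 genes (5.47%). A match of letters is a description and not a binding site. The 30-base windows of R64 that follow hold the match in capitals in the direction in which the motif reads. They are shown for members that return in the results: highly expressed genes (RPS10A, RPL33A, RPS10B), genes with the largest positive values in CRN/PPN1 with manganese, which were not called (RPL8A, RPL41B), and a paralog of a pair that shifted (RPS7A).
RPS10A, chrXV:866749-866778, minus strand: aaccggtgtaACACCCATACAaacccagaa
RPL33A, chrXVI:281757-281786, plus strand: tacctctttACACCCTTACActtcctttga
RPS10B, chrXIII:732215-732244, minus strand: aagggcatatACACCCACACAtgcgcgatg
RPL8A, chrVIII:36246-36275, minus strand: atgaagaaaACACCCAAACAtatctaggcc
RPL41B, chrIV:222127-222156, minus strand: acggttaccACACCCGTACAcccttatctc
RPS7A, chrXV:505310-505339, plus strand: aaccttatcACACCCAAACAtatgatatgg

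In these windows the match lay 330, 346 and 180 bases before the start codons of RPS10A, RPL33A and RPS10B, and 231, 336 and 465 bases before those of RPL8A, RPL41B and RPS7A. Genes with large and with small changes in manganese were both among the matches. Other motifs were no more frequent before ribosomal protein genes than before all genes. The Abf1 motif was found for 35.8% of members and 37.7% of all genes, the PAC motif GATGAG, common before ribosome assembly genes, for 21.9% and 28.2%, and the stress element AGGGG for 27.0% and 34.0%.

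All 137 members passed the filter on low counts, as did 5778 genes in all. Gene counts ran between 2309776 and 3579469 per library, and every member had at least 55 counts in every library. PPN1 had 7126 and 8387 CPM in CRN/PPN1 with manganese and 2942 and 3055 CPM in CRN/PPN1 controls, against 7.58 and 0.514 CPM in CRN with manganese and 5.57 and 3.93 CPM in CRN controls, as the strain labels state. Here and throughout, CPM are counts scaled to a library of equal size after TMM, which holds the bulk of genes level. The a-specific genes MFA1, MFA2, STE2, BAR1 and STE6 had at least 90.6 CPM in every library, whereas the alpha-specific STE3 reached 17.9 CPM at most, and MF(ALPHA)1 stayed below that. The cultures of CRN controls differed from each other: replicate 1 was above replicate 2 in 118 of 137 members, with a median ratio of 1.35. In the other groups that median was between 0.869 and 1.11.

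The transcripts of the 137 genes took up 19.4% and 20.3% of all gene counts in CRN/PPN1 with manganese, 38.1% and 36.6% in CRN/PPN1 controls, 5.78% and 6.82% in CRN with manganese, and 51.5% and 45.6% in CRN controls. The groups did not overlap. The mean ± SD (n = 2 each) was 19.8 ± 0.603% in CRN/PPN1 with manganese, 37.3 ± 1.05% in CRN/PPN1 controls, 6.30 ± 0.733% in CRN with manganese and 48.5 ± 4.21% in CRN controls, and groups next to each other in level were further apart than their replicates. The share was thus 7.71-fold lower in manganese than in control medium in CRN and 1.88-fold lower in CRN/PPN1. With 2 libraries against 2 the smallest two-sided p of an exact permutation test is 0.333, so such a test of a single share could not pass 0.05. The 95% Wilson intervals of these shares were at most 0.059 points wide on either side and cover counting error only. The plot of the share by library shows both subunits together. A share of the library does not say how much RNA a cell held, and fewer cells with these transcripts and less of them per cell cannot be told apart.

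**Figure D1:**
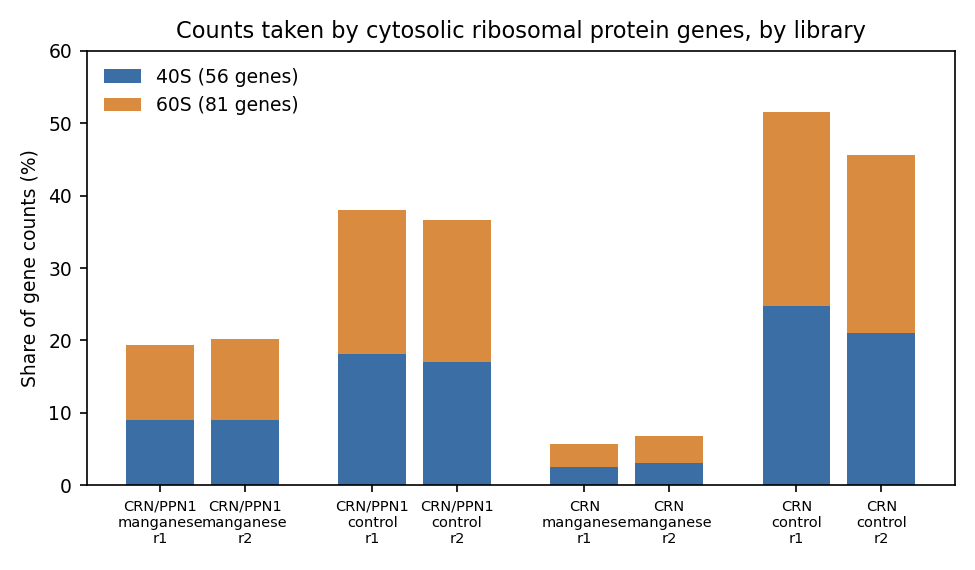
Share of all gene counts (%, y axis from 0) that fell on ribosomal protein genes in each of the 8 libraries, with the 40S and 60S genes stacked, and the 4 groups from left to right as CRN/PPN1 with manganese, CRN/PPN1 controls, CRN with manganese and CRN controls. The CRN libraries in manganese stand at 5.78% and 6.82% and the CRN libraries in control medium at 51.5% and 45.6%, with CRN/PPN1 between them in both media.

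In CRN, every ribosomal protein gene fell in manganese under TMM scaling. All 137 were called lower (adjusted p of at most 0.05 and a log2 fold change of at least 1 in size, edgeR), where 24% of all tested genes were called lower and 24.7% higher. The median log2 fold change of the members was -4.38, with values between -5.89 and -1.15, against a median of 0.09 over all tested genes. The deepest fall was that of RPS22A, which encodes a protein of the small subunit. RPS22A had 352 and 426 CPM in CRN with manganese, against 28554 and 17514 CPM in CRN controls (log2 fold change -5.89, SE 0.38, adjusted p = 4.28e-09). RPL40B had 187 and 214 CPM in CRN with manganese, against 13472 and 8068 CPM in CRN controls (log2 fold change -5.75, SE 0.36, adjusted p = 3.72e-09). RPL31A had 434 and 479.7 CPM in CRN with manganese, against 25362 and 15378 CPM in CRN controls (log2 fold change -5.48, SE 0.36, adjusted p = 4.95e-09). In these genes the higher culture in manganese stood far below the lower culture in control medium. RPL40A, RPL40B and RPS31 encode fusions of ubiquitin with a ribosomal protein, from which ubiquitin is cut. RPS31 had 1039 and 1003 CPM in CRN with manganese, against 46433 and 23352 CPM in CRN controls (log2 fold change -5.09, SE 0.42, adjusted p = 4.41e-08), and RPL40A fell by 5.03 on the log2 scale.

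The smallest falls in CRN were those of RPL3, RPL8A and RPS4B. RPL3, an essential protein close to the site of peptide bond formation, had 687 and 798 CPM in CRN with manganese, against 1478 and 1824 CPM in CRN controls (log2 fold change -1.15, SE 0.23, adjusted p = 0.000381). RPL8A had 83.4 and 82.9 CPM in CRN with manganese, against 193 and 189 CPM in CRN controls (log2 fold change -1.20, SE 0.18, adjusted p = 2.93e-05), and RPS4B had 136 and 169 CPM in CRN with manganese, against 386 and 451 CPM in CRN controls (log2 fold change -1.46, SE 0.19, adjusted p = 9.5e-06). The groups did not overlap in any of the 137 genes, a pattern found in 39.7% of all tested genes in this direction and in 44.3% in the other. With scaling by library totals and no TMM factors, the log2 fold changes of RPL3, RPL8A and RPS4B were 0.31, 0.29 and 0.02, so the direction of these genes rests on the scaling, and 115 members were called lower. Of all 5778 tested genes, 609 were then called lower and 3675 higher, and their median moved to 1.57. Relative to it the median of the members was -4.44, close to the -4.47 under TMM.

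Genes with well-studied single roles followed the set to different extents. RPL30, whose protein binds its own transcript and blocks its splicing, had 280.1 and 436 CPM in CRN with manganese, against 15532 and 10990.1 CPM in CRN controls (log2 fold change -5.21, SE 0.34, adjusted p = 5e-09). RPL28, the protein in which cycloheximide resistance arises, fell by 4.90 on the log2 scale (adjusted p = 3.46e-09). RPL10, which joins the 60S subunit late in the cytoplasm, and RPS3, at the entry of the mRNA channel, changed by -2.88 and -3.19. Among the stalk genes, RPP0, the base of the stalk that binds elongation factors, changed least, with 495 and 449.5 CPM in CRN with manganese, against 1603 and 1772 CPM in CRN controls (log2 fold change -1.84, SE 0.21, adjusted p = 1.56e-06). The acidic proteins that sit on it changed more, by -3.64 (RPP1A), -4.70 (RPP1B), -4.96 (RPP2A) and -3.97 (RPP2B). RPS6A and RPS6B, which encode identical copies of the protein that is phosphorylated downstream of TOR, changed by -3.04 and -2.32, with under 50% unique windows in each.

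In CRN/PPN1 the same medium gave a smaller fall. 95 of 137 members were called lower and 0 higher, where 15.1% of all tested genes were called lower and 10.1% higher, and the median log2 fold change was -1.52. The values lay between -2.32 and 0.64. RPL30, RPL40B and RPL34A led the fall. RPL30 had 1225 and 1434 CPM in CRN/PPN1 with manganese, against 6426 and 6813 CPM in CRN/PPN1 controls (log2 fold change -2.32, SE 0.30, adjusted p = 2.82e-05). RPL40B had 1238 and 875 CPM in CRN/PPN1 with manganese, against 5894 and 4474 CPM in CRN/PPN1 controls (log2 fold change -2.29, SE 0.31, adjusted p = 3.9e-05). RPL34A had 1353 and 1210.2 CPM in CRN/PPN1 with manganese, against 6901 and 5516 CPM in CRN/PPN1 controls (log2 fold change -2.28, SE 0.28, adjusted p = 1.73e-05). The cultures in manganese stood below those in control medium in 122 members (35.2% of all tested genes), above them in 3 (34.8%), which were RPL8A, RPL8B and RPS0B, and overlapped with them in 12. RPS22A (-2.22), RPS31 (-2.06) and RPL31A (-1.93) were called as well. Scaled to the library total, 54 members were called lower and 3 higher, where 404 of 5778 tested genes were called lower and 1869 higher. That scaling put the median of all genes at 0.68, and the median of the members relative to it was -1.53, the value found under TMM. With a smooth trend on coding length removed from all fold changes, as described with the lengths, 9 members were called lower and 6 higher, where 7.84% of all tested genes were called lower and 8.36% higher, so that neither count was above the share of all genes.

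The 42 members that were not called in CRN/PPN1 were mostly long. 26 of them had over 600 bases of coding sequence, and 8 of the 42 had a value above 0. RPL8A had 191 and 214 CPM in CRN/PPN1 with manganese, against 135 and 126 CPM in CRN/PPN1 controls (log2 fold change 0.64, SE 0.18, adjusted p = 0.00993), a difference below the size needed for a call. RPS0B had 924 and 723 CPM in CRN/PPN1 with manganese, against 679 and 574 CPM in CRN/PPN1 controls (log2 fold change 0.39, SE 0.22, adjusted p = 0.163). RPL41B had 405 and 1099.8 CPM in CRN/PPN1 with manganese, against 362 and 683 CPM in CRN/PPN1 controls (log2 fold change 0.53, SE 0.42, adjusted p = 0.344). The cultures of RPL8A and RPS0B did not overlap between the media, and those of RPL41B did. RPS9A, RPL5 and RPS4B had the values nearest to 0, at 0.00, -0.07 and 0.09. RPL5 carries the 5S RNA into the ribosome, and its levels were 1776 and 1663 CPM in CRN/PPN1 with manganese, against 1809.6 and 1792 CPM in CRN/PPN1 controls. RPL3 (0.22, adjusted p = 0.465), RPL2A (0.10), RPL2B (-0.33), RPS3 (-0.80), RPS6A (-0.45), RPS6B (-0.30), RPP0 (-0.31) and RPL10 (-0.72, adjusted p = 0.0425) were not called either. A p that misses the threshold does not show that they were level.

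Already in control medium CRN/PPN1 had less of these transcripts than CRN. 69 of 137 members were called lower and 0 higher, where 4.45% of all tested genes were called lower and 4.45% higher. The median log2 fold change was -1.0, with values between -1.99 and -0.10, so that the median member sat at the size needed for a call. RPS28B, RPS11B and RPL23A differed most. RPS28B had 40.8 and 28.7 CPM in CRN/PPN1 controls, against 145 and 131 CPM in CRN controls (log2 fold change -1.99, SE 0.30, adjusted p = 0.000521). RPS11B had 869 and 528 CPM in CRN/PPN1 controls, against 2423 and 1552 CPM in CRN controls (log2 fold change -1.51, SE 0.29, adjusted p = 0.00243). RPL23A had 876 and 810.4 CPM in CRN/PPN1 controls, against 2514 and 2180.1 CPM in CRN controls (log2 fold change -1.48, SE 0.22, adjusted p = 0.000458). The cultures of the strains did not overlap in any of these. RPL41B (-0.10), RPL39 (-0.24) and RPL4A (-0.27) differed least and were not called. CRN/PPN1 lay below CRN without overlap in 128 members (29.6% of all tested genes) and overlapped with it in 9.

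This count depended on single cultures, on the scaling and on coding length. The median member was -0.89 without replicate 2 of CRN/PPN1 controls, -0.76 without replicate 1 of CRN controls and -1.19 without replicate 2 of CRN controls. Relative to the median of all genes it was -0.87, -0.76 and -1.19. The number of calls among all genes moved the same way in these fits, each of which leaves 1 library in a group. Scaled to the library total, 1 member was called lower, where 37 of 5778 tested genes were. That scaling moved the median of all genes to 0.50, and relative to it the median of the members was -0.96, against -1.0 under TMM. With the length trend removed, 12 members were called lower, where 1.9% of all tested genes were.

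In manganese the order of the strains was turned round. 125 members were called higher in CRN/PPN1 and 0 lower, where 10.4% of all tested genes were called higher and 7.37% lower. The median log2 fold change was 1.72. RPS30B, RPS10B and RPS29A rose most. RPS30B encodes a protein that is made as a fusion with a ubiquitin-like peptide in mammals but not in yeast. RPS30B had 1760.3 and 1645 CPM in CRN/PPN1 with manganese, against 175 and 214 CPM in CRN with manganese (log2 fold change 3.13, SE 0.31, adjusted p = 1.26e-05). RPS10B had 4313 and 2658 CPM in CRN/PPN1 with manganese, against 444 and 471 CPM in CRN with manganese (log2 fold change 2.93, SE 0.36, adjusted p = 4.07e-05). RPS29A had 1476 and 2359.9 CPM in CRN/PPN1 with manganese, against 235 and 304 CPM in CRN with manganese (log2 fold change 2.83, SE 0.32, adjusted p = 2.18e-05). The cultures of CRN/PPN1 lay above those of CRN without overlap in 135 members (31.7% of all tested genes), overlapped in RPS14B and lay below in 1 (33.1%), RPS28B. RPS28B had 17.8 and 34.8 CPM in CRN/PPN1 with manganese, against 40.5 and 55.3 CPM in CRN with manganese (log2 fold change -0.87, SE 0.30, adjusted p = 0.036). RPS14B, RPL9B and RPL15B, with 0.25, 0.71 and 0.74, were the other members of lowest value.

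The interaction of strain and medium, which tests whether the response to manganese differed between the strains, was called positive for 136 of 137 members and negative for 0, where 15% of all tested genes were called positive and 11.6% negative. Its median was 2.84 on the log2 scale, with values between 1.12 and 3.67. RPS22A (log2 difference 3.67, SE 0.45, adjusted p = 4.58e-05), RPL31A (log2 difference 3.55, SE 0.43, adjusted p = 4.53e-05) and RPS30B (log2 difference 3.51, SE 0.42, adjusted p = 4.35e-05) had the largest values. The 1 member not called was RPS28B (log2 difference 1.12, SE 0.42, adjusted p = 0.0547). The fall in manganese was larger in CRN than in CRN/PPN1 in 137 of 137 genes. The changes in the strains, which share no library, had a Pearson correlation of 0.932 and a Spearman correlation of 0.921 across the 137 genes, which are not independent replicates and share coding length as a property. Growth had lasted 40 h in CRN and 16 h in CRN/PPN1 with manganese.

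**Figure D2:**
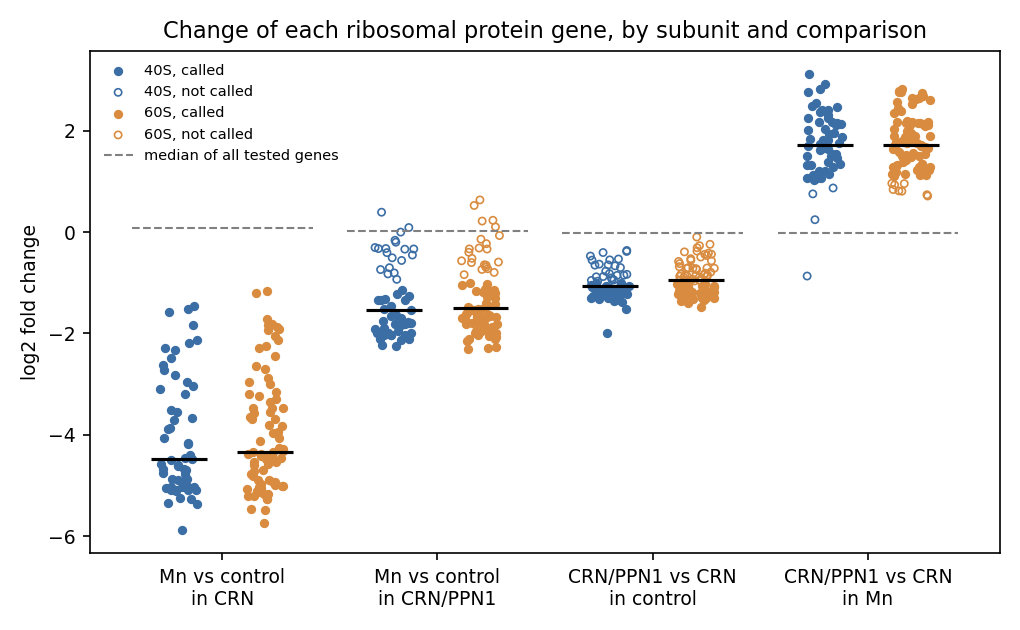
Log2 fold change of each of the 137 ribosomal protein genes (1 point a gene) in manganese against control medium in each strain and in CRN/PPN1 against CRN in each medium, with the 40S and 60S genes side by side, called genes filled, others open, black lines at the medians and dashed lines at the median of all tested genes. All members lie below 0 in CRN with manganese with a median of -4.38, while the median is -1.52 in CRN/PPN1 with manganese, -1.0 between the strains in control medium and 1.72 between them in manganese.

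The medians of the subunits moved in the same direction and by a similar size. In manganese the median log2 fold changes of the 40S and 60S genes were -4.49 and -4.34 in CRN and -1.53 and -1.50 in CRN/PPN1. Between the strains they were -1.07 and -0.95 in control medium and 1.72 for both in manganese. 37 of 56 40S genes and 58 of 81 60S genes were called lower in CRN/PPN1 with manganese, and 32 and 37 in CRN/PPN1 controls. The medians of the subunits lay within 0.15 of each other, against SDs among the genes of a subunit of 1.18 and 1.15 in CRN with manganese. Per kb of coding sequence, the ratio of 60S to 40S counts was 1.10 and 1.18 in CRN/PPN1 with manganese, 1.04 and 1.08 in CRN/PPN1 controls, 1.16 and 1.19 in CRN with manganese, and 1.04 and 1.11 in CRN controls. The libraries in manganese lay above those in control medium in both strains, a difference that was not tested. The median log2 level per kb of the 40S genes minus that of the 60S genes was 0.55 and -0.07 in CRN/PPN1 with manganese and 0.56 and 0.38 in CRN/PPN1 controls. It was 0.18 and 0.20 in CRN with manganese, below the 0.77 and 0.39 in CRN controls, also without a test. The 5 stalk genes were called lower in 5 cases in CRN and in 4 in CRN/PPN1, where RPP0 was not called, and their median between the strains in manganese was 1.14.

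Levels per kb of coding sequence, a scale on which genes can be compared, ranged widely. In CRN controls the mean levels were highest for RPS30A at 99762, RPS31 at 76018, RPS10A at 70239, RPL33A at 64564 and RPS26A at 60702 CPM per kb, and lowest for RPL15B at 173. RPS30A had 23795 and 14514 CPM and RPS31 46433 and 23352 CPM in the replicates of CRN controls, and these 5 had the same order in both replicates, although their ranges overlapped. The highest level was 298-fold and 293-fold the lowest in CRN/PPN1 with manganese, 537-fold and 525-fold in CRN/PPN1 controls, 92.0-fold and 106-fold in CRN with manganese and 770-fold and 408-fold in CRN controls. The SD of log2 levels per kb among the members was 1.72 and 1.72, 2.07 and 2.10, 1.25 and 1.31, and 2.13 and 1.98 in the same order of groups. Levels of the members were thus closest to each other in CRN with manganese. In CRN/PPN1, the log2 fold change in manganese had a Spearman correlation of -0.715 with the level per kb in CRN controls, whose libraries that comparison does not use (n = 137 genes). Level per kb is divided by coding length, which also correlated with this change (Spearman 0.488), and level and length were not separated. The members most abundant per kb tended to have the larger falls. RPL39, which lines the exit tunnel for the new peptide, went against this. RPL39 had 2715 and 4011 CPM in CRN/PPN1 with manganese, against 3298 and 4575 CPM in CRN/PPN1 controls (log2 fold change -0.23, SE 0.30, adjusted p = 0.582), and per kb it was the highest member in CRN/PPN1 with manganese by the mean of the replicates, at 21556 CPM per kb.

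Ribosomal protein genes are short, and length moved with the changes in these libraries. The median coding length was 432 bases for the members, against 1272 for the other tested genes. In CRN with manganese the median log2 fold change was -4.43 for the 19 members of up to 300 bases, -4.68 for the 89 members of up to 600 bases and -2.29 for the 29 longer members. The other genes in the same bands had medians of -2.82, -2.14 and 0.36. In CRN/PPN1 with manganese the members had medians of -1.33, -1.69 and -0.45, and the other genes -1.59, -1.18 and 0.18. In these bands 12 (63.2%), 80 (89.9%) and 3 (10.3%) members were called lower, against 63.1%, 53.2% and 4.84% of the other genes, so the shortest members were called about as often as other short genes. Within each band the members lay below the other genes in CRN, whereas in CRN/PPN1 the shortest members did not. The bands were set after the data were seen.

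Between the strains in control medium the members of these bands had medians of -0.55, -1.08 and -0.84, and the other genes -0.08, -0.53 and 0.04. In manganese the members had 2.48, 1.79 and 1.22 and the other genes 1.06, 0.38 and -0.11. The Spearman correlation of log2 fold change with log2 coding length was 0.568 over the members and 0.470 over the 5400 other genes in CRN, and 0.488 and 0.442 in CRN/PPN1. Between the strains it was -0.209 over the members and 0.259 over the other genes in control medium, of opposite sign, and -0.720 and -0.347 in manganese. Genes of up to 648 bases other than the members took 16.5% and 16.8% of counts in CRN/PPN1 with manganese, 29.9% and 29.5% in CRN/PPN1 controls, 11.9% and 13.3% in CRN with manganese and 28.8% and 28.7% in CRN controls. With a smooth trend on length removed from all fold changes, 125 members were called lower and 2 higher in CRN with manganese, where 23.9% and 18.8% of all tested genes were. The counts in CRN/PPN1 with manganese were the 9 lower and 6 higher given with that comparison. Between the strains 12 were lower and 0 higher in control medium, and in manganese 102 were higher and 1 lower in CRN/PPN1, where 7.89% and 6.3% of all tested genes were. RPS28A, RPS28B, RPL41A, RPP1A, RPL39 and RPS30B then had positive values in CRN/PPN1 with manganese, between 0.16 and 1.78, and RPS28B (1.34), RPL41A (0.10) and RPL41B (1.43) also in CRN. Since most members are short, the trend removed holds part of their own change, and with the trend of the other genes alone 130, 14 and 19 members were called lower and 2, 6 and 0 higher in the first 3 comparisons, and 113 higher and 1 lower in the last. Of all tested genes, 25.5%, 8.13% and 2.3% were then called lower and 18.1%, 8.34% and 4.0% higher in the first 3 comparisons. In the last, 8.9% were called higher and 5.88% lower.

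**Figure D3:**
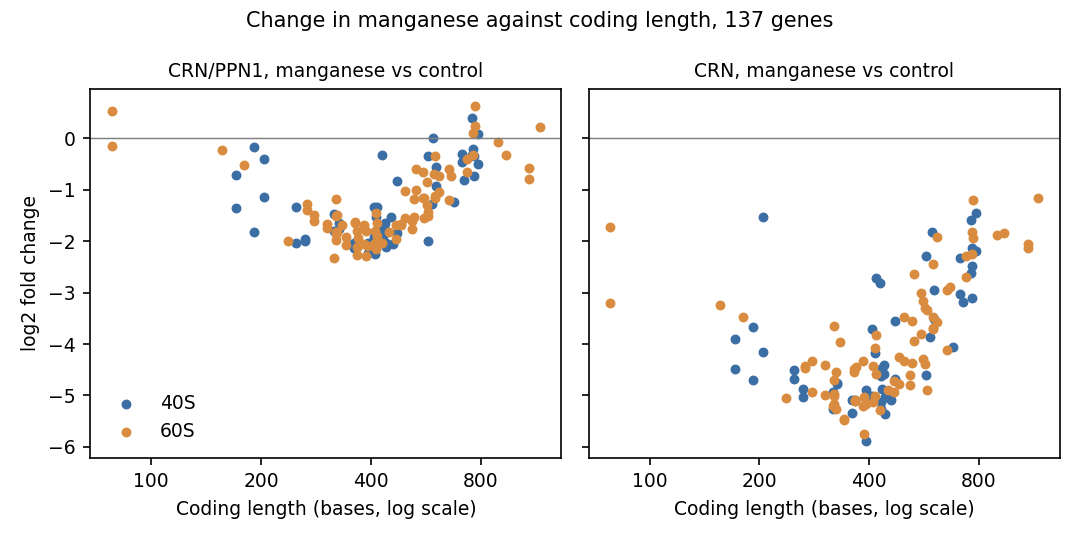
Log2 fold change in manganese against control medium plotted against coding length (bases, log axis) for the 137 ribosomal protein genes, 40S and 60S in 2 colours, in CRN/PPN1 on the left and CRN on the right. Longer members lie nearer to 0 in both strains (Spearman correlation 0.488 in CRN/PPN1 and 0.568 in CRN).

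Introns and the Rap1 motif, which the choice of members did not use, also divided the set. 89 of 137 members (65.0%) had an intron in the coding region, against 282 of 6013 genes (4.69%). In manganese the members with an intron had medians of -4.50 in CRN and -1.65 in CRN/PPN1, and those with none -3.56 and -1.10. The 19 members with the full Rap1 motif had medians of -4.99 in CRN and -1.82 in CRN/PPN1 with manganese, against -4.27 and -1.44 for those without it. These are descriptions without a test, and members with and without each feature also differed in level and length in ways that were not adjusted for.

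The ratio of the A to the B paralog was compared within each library, which makes it independent of the scaling between libraries. Its change was tested with edgeR over 436 pairs, the 59 ribosomal protein pairs and 377 other gene pairs of the genome that are each other's best match. In CRN controls the A gene held more counts in 35 pairs and the B gene in 24, and the major paralog held over 75% in 18. The A share of counts ran between 4.70% for RPS9 and 98.4% for RPS28. In RPS9 the B gene is the major form. RPL8 and RPL23 had the next smallest A shares, at 10.6% and 22.2%, and RPL15 and RPS7 the next largest, at 98.1% and 92.1%. The counts of a pair in a library were between 149 and 77440, and the 95% Wilson interval of the A share reached 7.86 points on either side for RPL35 at 149 counts, with a median of 1.19 points over pairs and libraries.

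In CRN with manganese, 34 of 59 pairs changed their ratio, where 60.8% of all pairs did, so ribosomal protein pairs were not called more often than other paralogs. The A gene lost share in 21 of the 34 and gained in 13. The calls fell on 13 of 24 40S pairs and 21 of 35 60S pairs. The median size of the change was 0.70 on the log2 scale, against 1.23 for the other pairs. RPS28A and RPS28B, whose protein sits near the path of the mRNA, changed most. RPS28A held 89.7% and 91.5% of the pair's counts in CRN with manganese, against 98.3% and 98.5% in CRN controls (log2 change of the ratio -2.66, SE 0.25, adjusted p = 3.78e-06). RPS7A held 67.4% and 72.8% in CRN with manganese, against 92.8% and 91.5% in CRN controls (log2 change of the ratio -2.32, SE 0.29, adjusted p = 3.11e-05). RPS9A held 18.0% and 15.6% in CRN with manganese, against 4.2% and 5.2% in CRN controls (log2 change of the ratio 2.03, SE 0.21, adjusted p = 7.82e-06). The cultures did not overlap in any of these pairs. In the levels themselves, RPS28A fell to 354 and 596 CPM in CRN with manganese, against 8134 and 8889 CPM in CRN controls, while RPS28B had 40.5 and 55.3 CPM against 145 and 131 CPM in the same groups (log2 fold changes -4.16 and -1.52). RPL15 (-1.65) and RPL9 (-1.53) completed the 5 largest changes. 17 of the 34 pairs changed by at least 1 on the log2 scale.

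In CRN/PPN1 with manganese, 11 of 59 pairs changed, where 32.3% of all pairs did, with a median size of 0.32 against 0.68 for the other pairs. RPS7A held 73.3% and 79.7% in CRN/PPN1 with manganese, against 88.6% and 93.5% in CRN/PPN1 controls (log2 change of the ratio -1.68, SE 0.29, adjusted p = 0.00106). RPS30A held 68.3% and 68.7% in CRN/PPN1 with manganese, against 86.6% and 88.1% in CRN/PPN1 controls (log2 change of the ratio -1.67, SE 0.17, adjusted p = 2.71e-05). In both pairs the cultures in manganese lay below those in control medium. RPS9A held 10.8% and 13.7%, against 5.7% and 5.3% (log2 change of the ratio 1.26, SE 0.21, adjusted p = 0.000995), and RPS11A 61.3% and 62.0%, against 75.6% and 77.5% (log2 change of the ratio -1.02, SE 0.17, adjusted p = 0.000824). RPL13A, with 43.1% and 32.8% in CRN/PPN1 with manganese, against 28.2% and 23.2% in CRN/PPN1 controls (log2 change of the ratio 0.82, SE 0.27, adjusted p = 0.0369), was not called when any of 5 single libraries was left out. Without replicate 2 of CRN/PPN1 controls 4 of the 11 pairs stayed called.

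The ribosomal protein pairs shifted in much the same way in both strains. The shared signs, shared calls and correlations that follow were not computed for the other pairs, so they are not shown to be particular to this set. The changes in CRN/PPN1 had the sign of those in CRN in 48 of 59 pairs, with a Pearson correlation of 0.816 and a Spearman correlation of 0.844 across pairs, in comparisons that share no library. Of the 34 pairs called in CRN, 32 had the same sign in CRN/PPN1 and 32 a smaller change there, and the 11 pairs called in CRN/PPN1 were called in CRN with the same sign. Since the 34 were picked by their change in CRN, a smaller change in the other strain follows in part from the choice. That count therefore does not show a weaker shift in CRN/PPN1, and the interaction test, given below, compares the strains directly. In the plot of the changes the slope of CRN/PPN1 on CRN was 0.475, a value that noise in the CRN changes also lowers. The lesser paralog tended to gain share. To keep the choice of the lesser gene apart from the change, it was taken from the control cultures of the other strain. It gained in 42 of 59 pairs in CRN and in 40 of 59 in CRN/PPN1, and in 29 of the 34 and 10 of the 11 called pairs. The other pairs of the genome leaned the same way, with 246 of 377 in CRN and 228 of 377 in CRN/PPN1, and 165 of 231 and 82 of 130 called pairs. This count was added after the data were seen. By group means, the paralog with more counts changed in 11 pairs in CRN and in 4 in CRN/PPN1, a count without a test. It includes pairs close to an equal share. In CRN with manganese RPL11A held 50.4% and 49.5% and RPL14A 45.8% and 52.6%, so their replicates differ in the major gene. The count was not made for the other pairs.

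**Figure D4:**
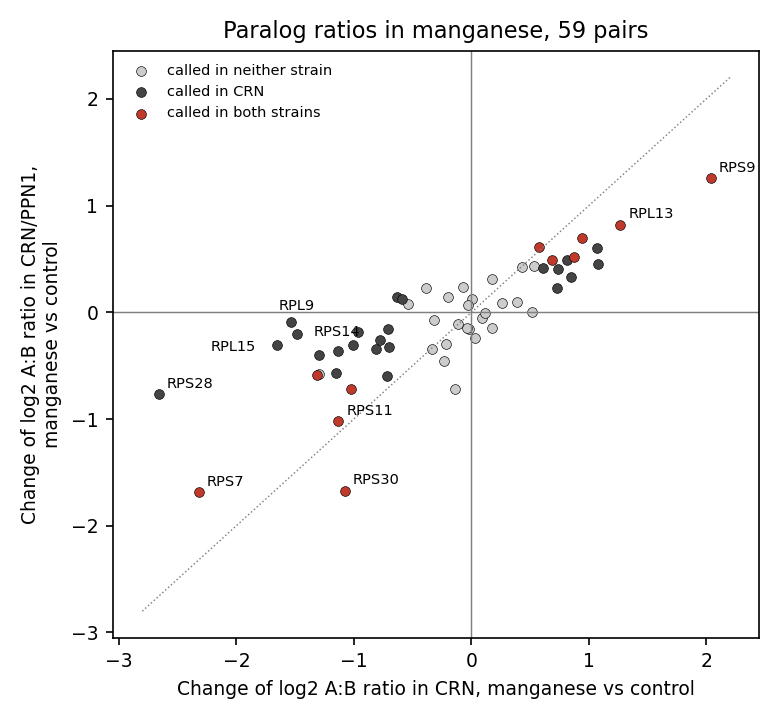
Log2 change of the A to B ratio in manganese against control medium for the 59 ribosomal protein pairs, in CRN/PPN1 plotted against CRN, coloured by the strain in which the change was called, with a dotted line of equal change. Of the 59 pairs, 48 have the same sign in both strains, and the slope of CRN/PPN1 on CRN is 0.475.

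Between the strains in control medium, 1 of 59 pairs was called, where 9.4% of all pairs were. It was RPS28, in which the A gene held 99.1% and 99.5% in CRN/PPN1 controls, against 98.3% and 98.5% in CRN controls (log2 change of the ratio 1.33, SE 0.26, adjusted p = 0.00645). RPS28B is scarce in all of these cultures. The pair was not called without replicate 1 of CRN controls or without replicate 2 of CRN/PPN1 controls. In manganese, 17 of 59 pairs were called, where 29.6% of all pairs were. RPS28A held 98.8% and 99.0% in CRN/PPN1 with manganese, against 89.7% and 91.5% in CRN with manganese (log2 change of the ratio 3.23, SE 0.27, adjusted p = 1.33e-05). RPL9A held 82.4% and 78.9% in CRN/PPN1 with manganese, against 59.0% and 61.8% in CRN with manganese (log2 change of the ratio 1.45, SE 0.21, adjusted p = 0.000377). RPS14A held 76.8% and 78.1% in CRN/PPN1 with manganese, against 55.5% and 62.9% in CRN with manganese (log2 change of the ratio 1.24, SE 0.23, adjusted p = 0.00177). In each of these the A share was higher in CRN/PPN1 and the cultures did not overlap. RPL36 (1.22) and RPL6 (1.16) followed. Without replicate 1 of CRN with manganese 10 of the 17 pairs stayed called, and RPL36 was not among them.

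The change of the ratio in manganese differed between the strains, by the interaction test, in 8 of 59 pairs, where 23.9% of all pairs were called. These were RPS28, RPL9, RPL15, RPS14, RPL6, RPL22, RPL43 and RPP2, and in each the A gene lost share in CRN and less or none in CRN/PPN1. All 8 were called in CRN, while their changes in CRN/PPN1 lay between -0.77 and 0.14 and were not called. RPL9A held 82.4% and 78.9% in CRN/PPN1 with manganese and 79.8% and 83.5% in CRN/PPN1 controls, and 59.0% and 61.8% in CRN with manganese and 82.1% and 80.9% in CRN controls (interaction, log2 change of the ratio 1.44, SE 0.29, adjusted p = 0.0058). RPS14A, the major of the genes for a protein that also represses splicing of the RPS14B transcript, held 76.8% and 78.1% in CRN/PPN1 with manganese and 77.1% and 82.3% in CRN/PPN1 controls, and 55.5% and 62.9% in CRN with manganese and 78.8% and 81.8% in CRN controls (interaction, log2 change of the ratio 1.29, SE 0.32, adjusted p = 0.0122). In both pairs 3 groups lay together and CRN with manganese lay apart. RPL15A held 96.8% and 96.5% in CRN/PPN1 with manganese and 97.1% and 97.4% in CRN/PPN1 controls, and 94.1% and 94.2% in CRN with manganese and 98.3% and 97.8% in CRN controls (interaction, log2 change of the ratio 1.34, SE 0.29, adjusted p = 0.00674). When single libraries were left out, 3 to 6 of these 8 pairs stayed called, with 3 without replicate 1 of CRN/PPN1 controls. RPS28, RPL9 and RPL15 were called in every such fit, RPS14 was lost in 3 and RPL6 in 6.

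**Figure D5:**
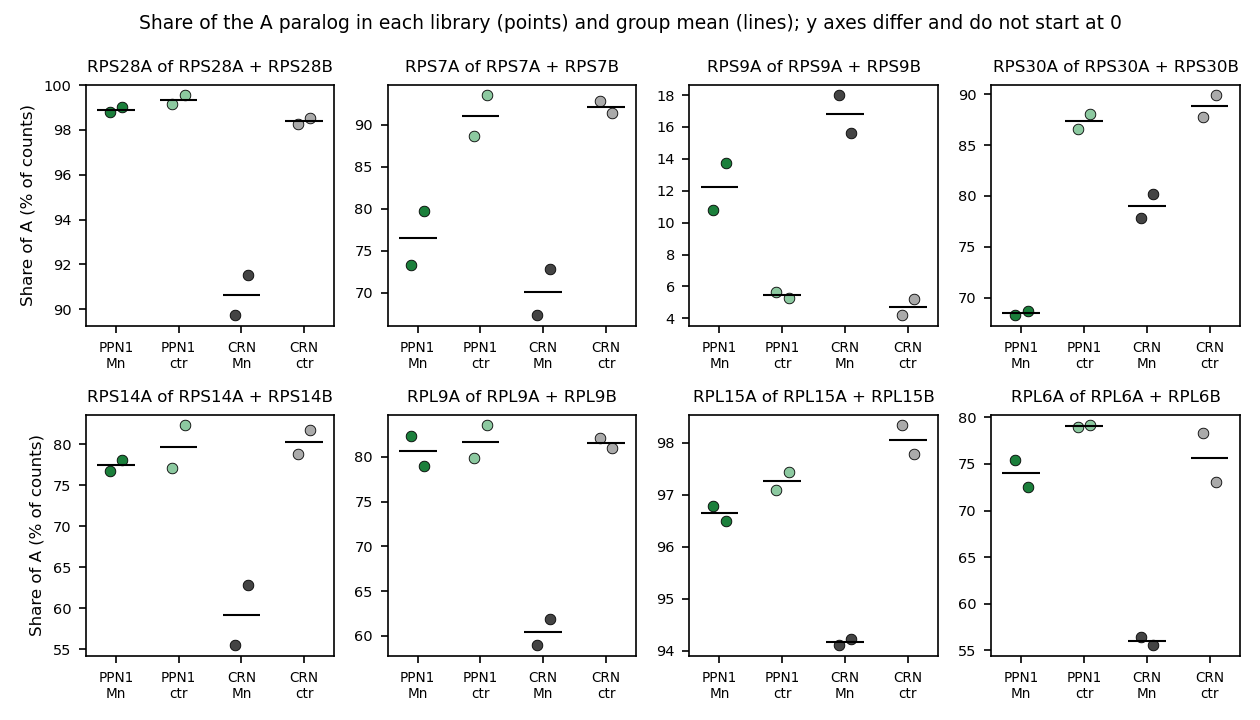
Share of the pair's counts held by the A paralog (%, y axes that differ and do not start at 0) in each library (points) with the group mean (lines) for 8 pairs whose ratios are described, with the groups from left to right as CRN/PPN1 (tick PPN1) in manganese, CRN/PPN1 controls, CRN with manganese and CRN controls. In RPL9 and RPS14 the CRN libraries in manganese lie at 59.0% and 61.8% and at 55.5% and 62.9%, below the other 6 libraries, whereas RPS7 is lower in manganese in both strains.

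RPL22 is a pair of unequal paralogs, of which RPL22B carries an intron whose splicing the protein can block. RPL22A had 1609 and 1375 CPM in CRN/PPN1 with manganese and 5690.2 and 4704 CPM in CRN/PPN1 controls, and 259 and 289 CPM in CRN with manganese and 12016 and 6944 CPM in CRN controls. RPL22B had 267 and 280.0 CPM in CRN/PPN1 with manganese and 1156 and 949 CPM in CRN/PPN1 controls, and 66.9 and 91.1 CPM in CRN with manganese and 2101 and 1353 CPM in CRN controls. Both fell in both strains, with log2 fold changes of -5.11 and -4.45 in CRN and -1.80 and -1.94 in CRN/PPN1, and the ratio differed by the interaction test (0.77). RPS14B changed by -2.72 in CRN, where RPS14A changed by -4.17, and by -1.33 and -1.52 in CRN/PPN1. RPS9A and RPS9B changed by -1.82 and -3.87 in CRN and by 0.00 and -1.27 in CRN/PPN1, the B form being called in both strains. RPL2A and RPL2B, which encode identical proteins of the peptidyl transferase centre, changed by -1.82 and -2.24 in CRN (log2 change of the ratio 0.43, SE 0.20, adjusted p = 0.0747). As a set, the A and the B paralogs had medians of -4.42 and -4.34 in CRN with manganese, -1.55 and -1.43 in CRN/PPN1 with manganese, -0.96 and -1.05 in CRN/PPN1 against CRN controls, and 1.76 and 1.65 in manganese.

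Of 19 genes that regulate ribosomal protein genes, 6 were called higher in CRN with manganese, 1 lower, and 12 were not called, a share of rises not far from the 24.7% of all tested genes. The forkhead protein gene FHL1 (2.03), its coactivator IFH1 (2.39), SFP1 (2.24), the kinase gene RIM15 (1.99), STB3 (1.73) and GCR1 (1.08) were higher, and HMO1, which encodes a high mobility group protein at these promoters, was lower (-1.81). IFH1 had 198 and 172 CPM in CRN with manganese, against 31.0 and 39.3 CPM in CRN controls (log2 fold change 2.39, SE 0.21, adjusted p = 1.25e-07). SFP1 had 88.9 and 71.4 CPM in CRN with manganese, against 22.3 and 11.8 CPM in CRN controls (log2 fold change 2.24, SE 0.32, adjusted p = 1.75e-05). Neither gene overlapped between the media. In CRN/PPN1 with manganese 3 were called higher, IFH1 (1.68), SFP1 (1.78) and RIM15 (1.44), and 0 lower, where 10.1% of all tested genes were higher and 15.1% lower. Between the strains the values of the 19 genes lay between -0.76 and 0.48 in control medium and between -0.97 and 0.87 in manganese, and the interaction was called positive for HMO1 (1.18). These are transcript levels and say nothing of the activity of the proteins.

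Of 10 genes for chaperones that bind single new ribosomal proteins, 5 were called lower in CRN with manganese, where 24% of all tested genes were, with -3.03 for LOC1, -2.27 for TSR2, the escort of Rps26, -1.58 for BCP1, -1.46 for YAR1, the escort of Rps3, and -1.10 for SYO1, which carries Rpl5 and Rpl11. In CRN/PPN1 with manganese 1 was called lower, LOC1 (-1.14), where 15.1% of all tested genes were, and TSR2 was the 1 called lower in CRN/PPN1 controls (-1.32), where 4.45% were. Of 20 tested genes for elongation factors and other ribosome-bound proteins, 12 were called lower in CRN with manganese, where 24% of all tested genes were. Among them were EGD1 (-4.11) and EGD2 (-3.75), the subunits of the nascent polypeptide associated complex, and HYP2 (-3.30), which encodes the factor eIF5A. In CRN/PPN1 with manganese 3 were called lower, EGD1 (-1.64), EGD2 (-1.39) and ANB1 (-1.48), and 1 higher, YEF3 (1.16), no larger shares than the 15.1% and 10.1% of all tested genes. In control medium 4 were lower in CRN/PPN1 (4.45% of all tested genes), and in manganese 4 were higher (10.4%) and 1 lower (7.37%), ANB1 (-2.12), the form of eIF5A made without oxygen. The interaction was positive for 13 of these 20 genes and for 4 of the 10 chaperone genes, where 15% of all tested genes were called positive, and it was negative for 0 of both lists, where 11.6% were.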

How the data were processed

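RNA was measured by single-end sequencing of libraries made with the TruSeq RNA v2 kit from 8 yeast cultures. The authors trimmed reads with Trimmomatic 0.36 (at least 36 bases kept), and mapped and counted them with STAR 2.5.3a on the Ensembl annotation of R64 (sacCer3), leaving out reads with several places. The deposited values are unnormalized read counts per gene. Counts from the opposite strand, 90.7% to 93.3% of stranded counts, were used, and 57008 of 57008 equalled those of the joint table. 6048 gene IDs matched RefSeq.

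Members and lists were chosen with earlier results of these data known. In R 4.3.3 with edgeR 4.0.16, genes of at least 2 CPM in at least 4 of 8 libraries were TMM-scaled and fitted as 4 groups by the quasi-likelihood F test (form before version 4, prior count 0.125). P-values were two-sided, with Benjamini-Hochberg adjustment over all 5778 genes, and calls needed an adjusted p of at most 0.05 and a log2 fold change of at least 1 in size. The biological coefficient of variation was 0.18. For paralogs, the counts of both genes entered a fit with a term for each library, adjusted over 436 pairs of at least 20 counts on average, and calls needed an adjusted p of at most 0.05. Other pairs were reciprocal best protein matches (identity of at least 40% over at least 70% of both). Both fits were tested on simulated data.

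Genes were named by role, by the 3 largest rises and falls of each comparison, by the smallest changes where most members were called, and by the 5 highest levels per kb. Pairs were named by the 5 largest called changes of each comparison and by the 3 largest and 3 smallest A shares. Other names were chosen after their values were seen. Alternatives were DESeq2 1.42.0, limma 3.58.1 for the ratios, other scalings, filters and strands, the replicate number as a block, removal of the length trend, and leaving out each library. Protein sequences were not used here.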

Additional observations from a re-analysis of the deposited data

Results flagged for a closer look

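All items here met 1 criterion: the response to manganese differed between CRN/PPN1 and CRN by the interaction term of edgeR, with adjustment over all genes or all pairs. Among genes, 136 of 137 members did, and the largest values were 3.67 for RPS22A, 3.55 for RPL31A and 3.51 for RPS30B on the log2 scale, each positive because the fall was smaller in CRN/PPN1. Among pairs, the change of the A to B ratio differed by 1.89 for RPS28, 1.44 for RPL9, 1.34 for RPL15, 1.29 for RPS14, 0.89 for RPL6, 0.77 for RPL22, 0.72 for RPL43 and 0.70 for RPP2. Groups of 2 libraries are too small to test a single library as an outlier. Growth time in manganese differed between the strains, and the 2 cannot be told apart.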

How the results depend on the processing

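Of 288 repeats of the counts and of the differences between subunit medians, 260 were taken as unchanged. A count had to stay within 1.5 times, and a subunit difference within the spread between replicates. All of the others were counts, 24 smaller and 4 larger. The spread was wider than the subunit differences themselves, so a change of sign also passed. Between the strains in manganese that difference ran from -0.203 to 0.144 when single libraries were left out. Members called lower in CRN with manganese than in CRN controls numbered 137, and those higher in CRN/PPN1 than in CRN, both with manganese, 125, in each of the fits by DESeq2, the later edgeR test and the filters. The count lower in CRN/PPN1 with manganese (95) was 54 scaled to the library total, 9 with the length trend removed and 14 with the trend of the other genes. The count lower in control medium (69) was 1, 12 and 19 under these. Calls among all tested genes under these settings are given with the comparisons and the lengths. Leaving out single libraries gave 136 to 137, 91 to 96, 12 to 91, 121 to 128 and 134 to 137 members in CRN with manganese, in CRN/PPN1 with manganese, between the strains in control medium, between them in manganese and in the interaction. For pairs they gave 29 to 38, 4 to 13, 0 to 1, 10 to 17 and 3 to 12.

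The replicate numbers were not taken to pair the cultures, since no label says that they do. Deviations of same-numbered libraries had positive correlations throughout, between 0.036 and 0.217 over all genes and between 0.138 and 0.695 over the members. Results with the number as a block are therefore given beside the main ones. With the replicate number as a block, 137, 95, 68, 125 and 137 members were called, and 26, 3, 28 and 14 pairs in CRN/PPN1 with manganese, in both strain comparisons and in the interaction. Without the block these pair counts were 11, 1, 17 and 8. The share of all pairs called with the block was not computed. With a change of at least 1 on the log2 scale, 17, 4, 5 and 4 pairs were called in CRN with manganese, CRN/PPN1 with manganese, between the strains in manganese and in the interaction, which had 5 with counts on either strand (55 pairs could be fitted).

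The turns of direction listed here are those of named genes that were called in the main fit, the alternative or both. In 51 further repeats of named genes, over all comparisons, the sign turned with no call in either fit. Scaling to the library total alone raised the median of the members in CRN/PPN1 with manganese from -1.52 to -0.846. Directions so turned in CRN with manganese were those of RPL3 (0.31), RPL8A (0.29) and RPS4B (0.015) scaled to the library total, and of RPS28B (1.34), RPL41A (0.10) and RPL41B (1.43) with the length trend removed, or RPS28B (1.03) and RPL41B (1.24) with that of the other genes. In CRN/PPN1 with manganese they were RPS28A (0.48), RPS28B (1.23), RPL41A (1.78), RPP1A (0.16), RPL39 (1.48) and RPS30B (1.51) with the length trend removed, or 0.46, 1.21, 1.90, 0.11, 1.5 and 1.5 in the same order with that of the other genes. The cause was not tested. Of 905 repeats of pairs and 4868 of genes, 24 and 202 lost a call. Few counts limit the share of a pair such as RPL35, with 149 in 1 library.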
